A study of Rattus norvegicus with 64 samples.

Results

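Layer II (LII) of the medial entorhinal cortex (MEC) and LII of the lateral entorhinal cortex (LEC) were compared for how their gene expression changed between the first postnatal days and adolescence in the rat. The 32 LII samples were taken, by their labels, from a series of 64 that also holds 32 samples of the deep layers (LIII–VI). All animals were Long Evans rats without treatment. For LII of each region there were 5 samples of postnatal day 2 (P2), 4 of P9, 3 of P23 and 4 of P45, and the sex of the animals was not given in the sources used here. By the study's description the layers of the MEC were dissected by hand under a microscope from slices kept in an RNA preservative. The study does not describe the dissection of the LEC. An LII sample is tissue that holds neurons, glia, vessels and, at the surface, meninges. The study describes its MEC samples as biological replicates and marks LII and deep-layer miRNA samples with the same number as taken from the same animal. For the LEC the sources used here do not state it, and p-values measure the spread between these samples.

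The quantity described is an interaction, written as a log2 fold change (LFC). It is the MEC minus LEC difference at P23/P45 minus the MEC minus LEC difference at P2/P9, where each pair of ages was averaged with equal weight. A positive value means that MEC LII gained on LEC LII with age, either by a larger rise or by a smaller fall. A negative value means that LEC LII gained on MEC LII.

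The entorhinal cortex is the main gateway between neocortex and hippocampus. LII of the MEC holds reelin-positive stellate cells and calbindin-positive pyramidal cells and is known for spatially tuned neurons, while LII of the LEC holds fan cells and carries information on objects and odours. In the weeks after birth cortical neurons exchange juvenile for adult ion channels, assemble their release machinery and stop expressing guidance molecules, and oligodendrocytes differentiate and wrap axons in myelin.

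The LII libraries held 3894334 to 11439143 counted read pairs (MEC median 7703875, LEC median 5575770). Levels are given as CPM, the counts of a gene scaled to a common library size. A single count stood for 0.0874 to 0.257 CPM, and 12190 genes passed the filter on low counts. In a principal component analysis the first component held 60.2% of the variance and separated P2, P9 and P23/P45, but replicate 4 of both regions at P9 lay between the other P9 samples and P2. Replicates 1 and 3 of the MEC at P2 stood apart on the second component. Their summed CPM over 19 meningeal fibroblast genes was 73.7 and 87.5, against 1095 to 2770 in the other 8 P2 samples. Their summed CPM over midbrain and thalamus genes was 889 and 444, against 196 to 363. In bulk tissue such as this, fewer cells of a type and less RNA per cell cannot be told apart.

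The interaction passed an adjusted p of 0.05 in 209 of 12190 genes (1.71%; edgeR quasi-likelihood test with Benjamini-Hochberg adjustment). MEC LII gained in 89 of them (0.73% of genes tested) and LEC LII gained in 120 (0.984%). An unadjusted p under 0.05 was found in 1585 genes. The size of the interaction had a median of 0.95 in the genes gained by MEC and 0.89 in those gained by LEC, while the median size over all genes tested was 0.15 and the median signed value was -0.01. Without MEC P2 replicate 1 the count was 338 (145 and 193), and it held all 209 genes. Without MEC P2 replicates 1 and 3 it was 443 (203 and 240), with 195 genes shared. In every one of the 32 fits that each left out a sample, 111 of the 209 genes were called.

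The regional difference of most of these genes was detected at the older ages. MEC and LEC differed at P23/P45 in 999 genes (8.2%), with 4.47% higher in the MEC and 3.72% higher in the LEC. They differed at P2/P9 in 675 (5.54%), with 3.74% higher in the MEC and 1.8% higher in the LEC. Of the 89 genes that MEC gained, 77 were higher in the MEC at P23/P45 with no difference called at P2/P9, and 7 were lower in the MEC at P2/P9 with no difference called at P23/P45. Of the 120 genes that LEC gained, 79 were lower in the MEC at P23/P45 only, and 31 were higher in the MEC at P2/P9 only. The samples of the regions did not overlap at P23/P45 in 47 and 50 of these genes, respectively, against 3.43% of all genes tested. At P2/P9 they did not overlap in 2 and 6 genes, against 0.254% of all genes. The genes were chosen by an interaction of these same values, so the counts of overlap describe them and are not separate evidence.

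Most of the genes that MEC gained rose with age in the MEC. The age change passed the test in 68.3% of genes in MEC LII (33.3% rose and 35% fell) and in 65% in LEC LII (32.2% rose and 32.8% fell). Of the 89 genes, 48 rose in both regions, 20 rose with a change called in the MEC only, 9 fell with a change called in the LEC only, 6 fell in both, and 6 rose in the MEC and fell in the LEC. Of the 120 genes that LEC gained, 39 fell in both regions, 28 fell with a change called in the MEC only, 30 rose with a change called in the LEC only, 8 rose in both, and 15 fell in the MEC and rose in the LEC. The interaction and both age changes come from the same samples, so these counts describe the called genes and are not separate evidence.

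**Figure D1:**
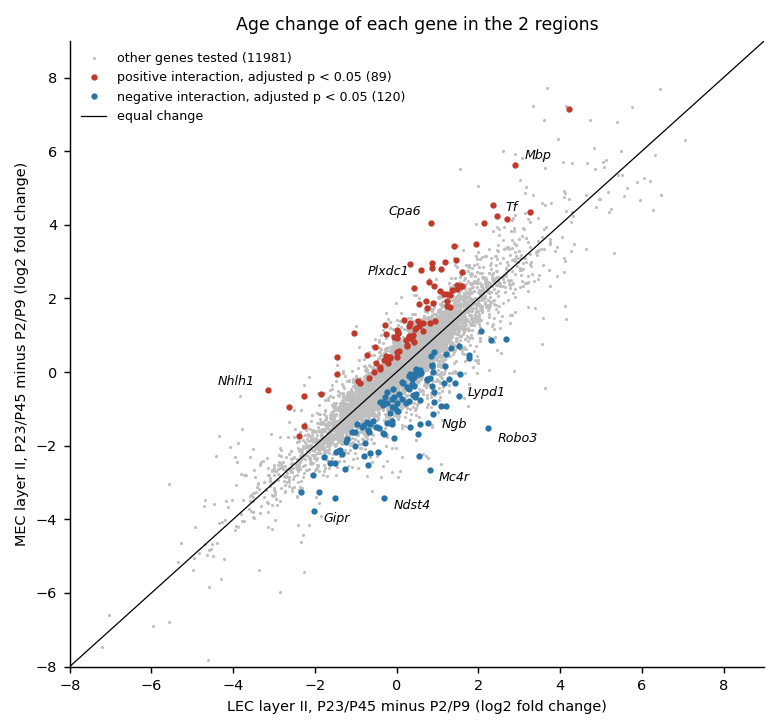
Age change (P23/P45 minus P2/P9, LFC) of each of the 12190 genes in LEC LII on the horizontal axis and in MEC LII on the vertical axis. The 89 genes with a positive interaction lie above the line of equal change and the 120 with a negative interaction lie below it, while the other genes spread along the line.

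Of the gene lists examined, that of oligodendrocyte and myelin genes held the most calls. Of its 28 measured genes, 8 had a positive interaction past the threshold (among them Mbp, Mag, Ugt8, Tspan2, Cnp and Gpr37) and 0 had a negative one by edgeR, DESeq2 or limma. Over all genes tested 0.73% passed in the positive direction. The value was positive in 26 of the 28, and their median was 1.09, or 0.98 without the 3 genes that had no count in at least 1 group, against -0.01 over all genes. Of the 28 genes, 15 had an unadjusted p under 0.05, as had 13% of all genes. The summed CPM of the list was 625 to 723 in MEC and 586 to 658 in LEC at P2. At P23 it was 4865, 5687 and 6693 in MEC and 2249, 2281 and 2733 in LEC. At P45 it was 4691, 4961, 5423 and 6223 in MEC and 1508, 1704, 1735 and 2700 in LEC. Every older MEC sample lay above every older LEC sample.

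A LEC sample of P9 carried more myelin RNA than its group. The summed CPM of the list was 1543 in LEC P9 replicate 2, against 638, 671 and 700 in the other LEC samples and 637 to 770 in the 4 MEC samples of that age. This sample raised the young LEC mean and with it the interaction. Without it, 6 of the 28 genes were called in place of 8, Mag was among those lost (adjusted p = 0.0827), and the median of the list was 0.94.

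The leading members encode parts of the sheath. Myelin basic protein (Mbp), which compacts the sheath, ran from 20.9 to 46.5 CPM (median 31.4) in young MEC and from 28.7 to 355 (median 36.1) in young LEC. It reached 1258 to 1957 CPM (median 1615) in older MEC and 261 to 685 (median 480) in older LEC samples. All 7 older MEC samples lay above all 7 older LEC samples. The interaction was 2.72 ± 0.50 (adjusted p = 0.00255), and 1.8 ± 0.21 without LEC P9 replicate 2 (adjusted p = 1.28e-05).

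Ugt8 makes galactosylceramide, the glycolipid of myelin (chromosome 2, 229644479 to 229718672, minus strand; all gene positions are on Rn6). Its level was 8.02 to 15.4 CPM (median 10.4) in young MEC, 10.9 to 36.4 (median 14.1) in young LEC, 65.8 to 120 (median 80.4) in older MEC and 14.9 to 44.6 (median 31.2) in older LEC. The older samples did not overlap. Between the ages Ugt8 rose 7.82-fold in the MEC and 1.84-fold in the LEC, and the interaction was 2.09 ± 0.26 (adjusted p = 2.08e-05).

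Mag, an adhesion molecule between myelin and axon, ran from 2.26 to 16.4 CPM (median 3.78) in young MEC and from 2.79 to 27.4 (median 5.03) in young LEC. At P23/P45 it reached 82.8 to 154 CPM (median 117) in MEC and 20.3 to 59.1 (median 31) in LEC. The interaction was 2.18 ± 0.53 (adjusted p = 0.0271) and passed in 28 of the 32 fits without 1 sample. The enzyme Cnp was chosen after its values were seen, as were Gpr37 and all other genes given below with that remark. Cnp had an interaction of 0.96 ± 0.18 (adjusted p = 0.0045).

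Tspan2, a tetraspanin of oligodendrocytes, changed in opposite directions between the pooled ages. In the MEC its 9 young samples ran from 46.2 to 92.4 CPM (median 70.7) and its 7 older samples from 93.5 to 137 (median 102). In the LEC the young samples ran from 43.8 to 118 CPM (median 60.4) and the older ones from 30 to 65.7 (median 50.8). By age the LEC samples rose from 43.8 to 60.4 CPM at P2 to 97.4 to 118 at P9. They then ran from 61.8 to 65.7 CPM at P23 and from 30 to 50.8 at P45, so the LEC course was a rise and a fall. Between the pooled ages Tspan2 rose in the MEC (LFC 0.68, adjusted p = 7.01e-07) and fell in the LEC (LFC -0.52, adjusted p = 6.7e-05). The interaction was 1.20 ± 0.14 (adjusted p = 9.69e-06), and the older samples of the regions did not overlap. Gpr37, a receptor of myelinating oligodendrocytes, rose in the MEC (LFC 1.26, adjusted p = 1.49e-08), whereas its change in the LEC did not pass (LFC 0.31, adjusted p = 0.0807).

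Genes that act earlier in the oligodendrocyte lineage were not called by edgeR, and 7 of 10 precursor genes had a negative value. The transcription factors Olig1 (0.02 ± 0.25), Olig2 (-0.15 ± 0.24) and Sox10 (-0.08 ± 0.24), which specify the oligodendrocyte lineage, had interactions within 1 SE of 0. Of 10 measured oligodendrocyte precursor genes 0 passed by edgeR or DESeq2 and 1 by limma with sample quality weights, and 2 had an unadjusted p under 0.05 in edgeR. Their values ran from -0.68 to 0.42 with a median of -0.22, and the median in the deep layers was 0.25. The precursor receptor Pdgfra had an interaction of -0.29 ± 0.16 (adjusted p = 0.456). The late myelin genes Opalin and Mobp were at 0 counts in 8 and 6 of the 9 young MEC samples and in 8 and 7 of the 9 young LEC samples, so no fold change is given for them.

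**Figure D2:**
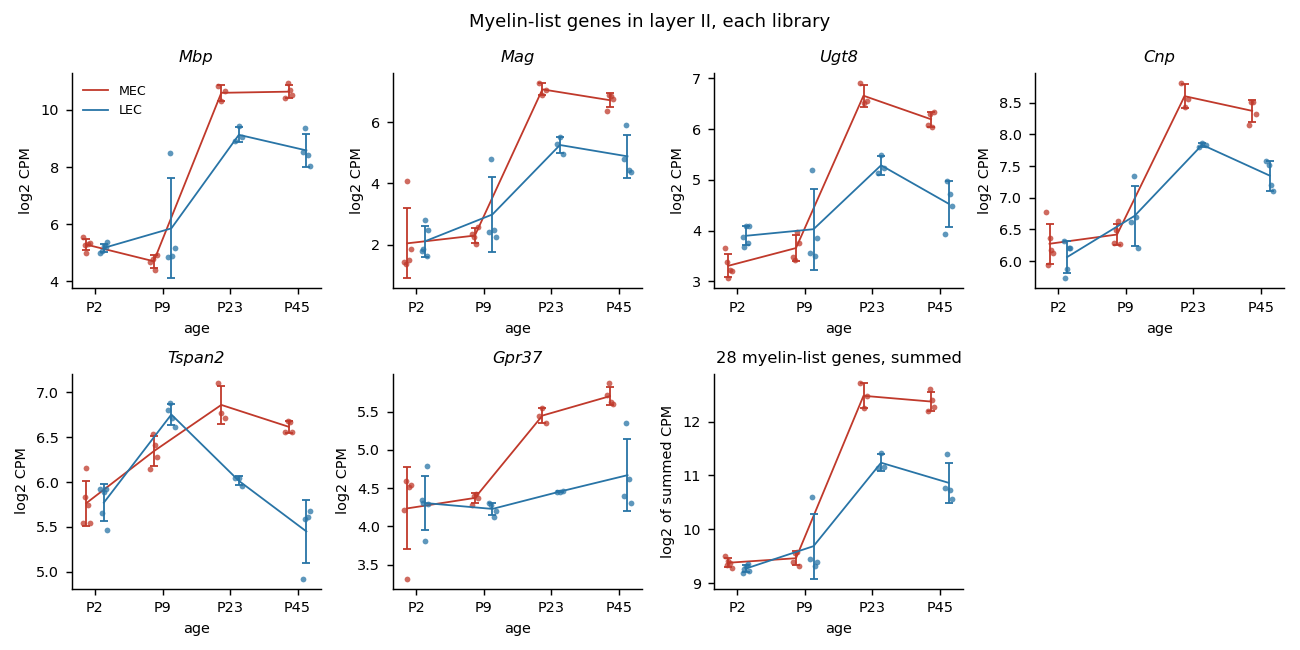
Expression of 6 myelin-list genes (log2 CPM) and log2 of the summed CPM of the 28 measured list genes by age in MEC LII (red) and LEC LII (blue). Points are samples, bars show the mean ± SD over samples, and the high LEC point at P9 is replicate 2 with a sum of 1543 CPM.

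Promoters of Mag and Cnp were chosen for display because they hold the letters ACAAAG on either strand, the core motif of SOX proteins. Windows of 250 bases before the annotated start were read from the RefSeq table (GRCr8), in which 6 of the 8 called genes had an entry. The motif was searched as ACAAAG and as its reverse complement CTTTGT, in capitals below.
Mag, chr1:95291045-95291294, minus strand: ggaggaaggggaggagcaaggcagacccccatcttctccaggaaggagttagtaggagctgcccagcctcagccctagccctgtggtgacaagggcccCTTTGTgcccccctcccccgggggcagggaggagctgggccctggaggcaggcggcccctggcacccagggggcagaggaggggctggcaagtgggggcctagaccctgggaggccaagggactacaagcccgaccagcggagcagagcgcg
Cnp, chr10:86011254-86011503, plus strand: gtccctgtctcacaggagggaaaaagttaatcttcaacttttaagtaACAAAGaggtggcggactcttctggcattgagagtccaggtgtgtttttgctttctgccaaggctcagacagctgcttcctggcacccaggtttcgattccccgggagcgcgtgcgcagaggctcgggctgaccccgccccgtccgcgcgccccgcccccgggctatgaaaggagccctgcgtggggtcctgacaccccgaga
The match began 152 bases before the start in Mag and 203 bases before it in Cnp. Of the 7 windows of called myelin genes 3 held the letters (42.9%), namely those of Mag and Cnp and 1 of 2 windows of Mbp, whereas those of Ugt8, Tspan2 and Gpr37 did not. They were found in 7 of 21 windows of the measured myelin list (33.3%), in 11.7% of the windows of all genes tested and in 16.3% of all 33469 windows. They were found in 14.1% of the windows of the genes gained by MEC and in 12.6% of those gained by LEC. A match is a description of the letters and does not show that a factor binds there.

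Other genes expressed by oligodendrocytes stood among the 12 strongest genes gained by MEC that passed in every fit without 1 sample. These genes also had both older regional differences on one side of both younger ones. All 209 called genes met this condition (37.2% of all genes tested), so it removed no called gene and is not separate evidence. Transferrin (Tf), the iron carrier that oligodendrocytes make, ran from 4.44 to 13.6 CPM (median 8.55) in young MEC and from 7.27 to 23.4 (median 11.6) in young LEC. In older samples it ran from 110 to 297 CPM (median 182) in MEC and from 47.5 to 114 (median 67.4) in LEC, and the ranges met at their ends. The interaction was 1.79 ± 0.25 (adjusted p = 0.00013). Adamts4, a protease that cleaves lecticans, had an interaction of 1.8 ± 0.38 (adjusted p = 0.00978).

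Rspo3, a secreted agonist of Wnt signalling (chromosome 1, 30682049 to 30765160, plus strand), rose more in the MEC. It ran from 0.315 to 6.59 CPM (median 3.79) in young MEC and from 2.03 to 8.02 (median 5.45) in young LEC. In older samples it ran from 23.3 to 34 CPM (median 24.2) in MEC and from 7.36 to 16.2 (median 13.4) in LEC. The young samples overlapped and the older ones did not. It rose 6.91-fold with age in the MEC and 2.14-fold in the LEC, and the interaction was 1.69 ± 0.33 (adjusted p = 0.00543).

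Plxdc1 encodes a transmembrane protein with a plexin-like domain (chromosome 10, 85871122 to 85938085, minus strand). The young samples were alike, at 2.93 to 7.08 CPM (median 4.52) in MEC and 3.87 to 5.91 (median 4.24) in LEC. The older MEC samples ran from 19.4 to 35.8 CPM (median 24.3) and the older LEC samples from 4.79 to 12.8 (median 6.77), without overlap. The interaction was 1.66 ± 0.25 (adjusted p = 0.000235).

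Epn3, an endocytic adaptor, reached 6.6 to 9.22 CPM (median 7.43) in older MEC samples and 0.742 to 6.82 (median 1.54) in older LEC samples, of which 1 overlapped with the MEC. It had run from 0.317 to 2.56 CPM (median 0.878) in young MEC and from 0.237 to 2.15 (median 1.11) in young LEC. The interaction was 2.19 ± 0.50 (adjusted p = 0.0179). Its rise in the LEC did not pass (LFC 0.59, adjusted p = 0.172). Scnn1g, a subunit of the epithelial sodium channel, had an interaction of 1.96 ± 0.41 (adjusted p = 0.00828).

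For some genes the difference arose from a fall in the LEC. Nhlh1, a transcription factor of young neurons, ran from 1.17 to 6.63 CPM (median 2.51) in young MEC and from 0.931 to 5.54 (median 2.48) in young LEC. It remained at 0.989 to 2.61 CPM (median 1.88) in older MEC and was at 0 to 0.664 (median 0.171) in older LEC, near the value of a single count. The interaction was 2.66 ± 0.59 (adjusted p = 0.014). Amn, which encodes a partner of the endocytic receptor cubilin, fell in both regions, by more in the LEC (interaction 1.68 ± 0.36, adjusted p = 0.00978).

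Fam3c, a secreted cytokine-like protein, was among the 6 genes that rose in the MEC and fell in the LEC, and was chosen after its values were seen. The young samples overlapped at 66.8 to 161 CPM (median 125) in MEC and 113 to 145 (median 121) in LEC. At P23/P45 it ran from 141 to 207 CPM (median 170) in MEC and from 59.3 to 94.3 (median 78.8) in LEC, without overlap. The interaction was 1.17 ± 0.14 (adjusted p = 6.67e-06). Tmem45b, a membrane protein, also rose in the MEC (LFC 1.06) and fell in the LEC (LFC -1.05), with an interaction of 2.11 ± 0.44 (adjusted p = 0.00797). Its counts were low, at 2 to 26 per sample. It ran from 0.34 to 1.66 CPM in young MEC and from 0.923 to 4.02 in young LEC. The older samples overlapped, at 1.23 to 3.3 CPM in MEC and 0.827 to 1.66 in LEC.

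Other positive genes had a call that was lost in some of the fits without 1 sample. The carboxypeptidase Cpa6 had an interaction of 3.21 ± 0.80 (adjusted p = 0.0318) and was called in 26 of 32 fits. Its older MEC samples ran from 2.83 to 10.1 CPM (median 5.97), above the older LEC samples at 0 to 1.65 (median 0.552). Sypl2 (2.61 ± 0.68) was called in 13 fits, Ninj2 (2.03 ± 0.54) in 6, Myom2 (1.90 ± 0.46) in 28 and Fam132a (1.85 ± 0.46) in 23 fits. By limma with quantile normalization Sypl2 (adjusted p = 0.312), Ninj2 (0.0526) and Fam132a (0.0705) were not called. Sypl2 was not called with sample quality weights (adjusted p = 0.174), nor Ninj2 (0.0908) and Fam132a (0.0975) with the replicate number as a block. Cpa6 and Myom2 passed in each of these settings.

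Among the genes that LEC gained, neuroglobin (Ngb), an oxygen-binding globin of neurons (chromosome 6, 111126259 to 111131699, minus strand), changed in opposite directions. It ran from 9.23 to 18.1 CPM (median 11.4) in young MEC and from 5.69 to 18.6 (median 8.77) in young LEC. In older samples it ran from 3.89 to 10.8 CPM (median 4.95) in MEC and from 11.2 to 26.7 (median 22.1) in LEC. Every older LEC sample lay above every older MEC sample. The interaction was -2.02 ± 0.23 (adjusted p = 6.67e-06).

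Lypd1, a membrane-anchored modulator of nicotinic receptors (chromosome 13, 42219885 to 42263024, minus strand), was higher in the MEC early in life. It ran from 48.6 to 209 CPM (median 77.8) in young MEC and from 16.4 to 65.6 (median 24.5) in young LEC, a 3.15-fold difference. In older samples it ran from 54.3 to 92.7 CPM (median 58.6) in MEC and from 48 to 122 (median 98.3) in LEC, and the difference did not pass (LFC -0.53, adjusted p = 0.0757). It rose 2.88-fold in the LEC. The interaction was -2.19 ± 0.25 (adjusted p = 6.67e-06).

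Ndst4, an enzyme that modifies heparan sulfate (chromosome 2, 229196616 to 229496516, plus strand), was lower in the MEC at both stages. The gap widened on the log2 scale, where the older MEC samples held only 0 to 9 counts. With P9 and P23 only the interaction was -2.14 (adjusted p = 0.479 by edgeR). The MEC samples ran from 1.95 to 11.7 CPM (median 6.41) when young and from 0 to 1.06 (median 0.778) when older. The LEC samples ran from 20.9 to 70.7 CPM (median 35.9) when young and from 15.2 to 78.9 (median 27.1) when older. The regions did not overlap at either stage. Ndst4 fell in the MEC (LFC -3.43), its change in the LEC did not pass (LFC -0.30, adjusted p = 0.356), and the interaction was -3.13 ± 0.56 (adjusted p = 0.00217).

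The largest negative value was that of Robo3, a receptor of the Roundabout family of axon guidance, at low counts. Its older LEC samples ran from 0.185 to 10 CPM (median 3.08) and its older MEC samples from 0 to 1.85 (median 0.389), and they overlapped. It had run from 0.565 to 2.56 CPM (median 1.02) in young MEC and from 0.183 to 1.19 (median 0.496) in young LEC. The interaction was -3.76 ± 0.71 (adjusted p = 0.00422). Robo3 fell in the MEC (LFC -1.52) and rose in the LEC (LFC 2.24).

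The melanocortin receptor gene Mc4r was higher in young MEC, at 0.68 to 20.5 CPM (median 5.28) against 0.711 to 2.24 (median 0.992) in young LEC. Most of this lay at P2, where the 5 MEC samples held 4.35, 5.28, 12.8, 18.7 and 20.5 CPM and the LEC samples at most 1.83. At P9 a single MEC sample, replicate 4 with 7.58 CPM, exceeded the LEC samples. The older samples ran from 0.314 to 1.38 CPM (median 0.989) in MEC and from 0.742 to 3.08 (median 2.32) in LEC. The interaction was -3.48 ± 0.66 (adjusted p = 0.00422). It was not called by limma with quantile normalization (-3.00, adjusted p = 0.0562) or by edgeR with P9 and P23 only (-1.54, adjusted p = 0.717).

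Kcna5 encodes a shaker-type potassium channel subunit (chromosome 4, 159077195 to 159079003, minus strand). It was alike in young samples, at 1.56 to 5.25 CPM (median 2.51) in MEC and 1.32 to 5.96 (median 2.32) in LEC. In older samples it was 1.41 to 3.46 CPM (median 2.3) in MEC and 6 to 9.57 (median 7.96) in LEC, without overlap. It rose in the LEC (LFC 1.44, adjusted p = 3.55e-08), its change in the MEC did not pass (LFC -0.30, adjusted p = 0.154), and the interaction was -1.73 ± 0.26 (adjusted p = 0.000235).

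Inhbb, a subunit of activins, fell in the MEC from 14.4 to 29.4 CPM (median 19.5) to 3.99 to 8.48 (median 5.74). In the LEC it ran from 7.75 to 20.7 CPM (median 16.3) when young and from 10.1 to 17.1 (median 13.6) when older, where its change did not pass (adjusted p = 0.747). The interaction was -1.73 ± 0.26 (adjusted p = 0.000321). Scml4, a polycomb-type protein (-1.70 ± 0.27), Tmem158, a Ras-induced membrane protein (-1.54 ± 0.25), and the protocadherin-related Cdhr1 (-1.49 ± 0.32) fell in both regions and by more in the MEC. By edgeR the interaction of Cdhr1 was -2.65 with P2 and P45 only (adjusted p = 0.00998). With P9 and P23 only it was -0.31 (adjusted p = 0.85). Ttc22 (-1.46 ± 0.33) and LOC690918 (-2.15 ± 0.47) fell in the MEC and rose in the LEC.

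**Figure D3:**
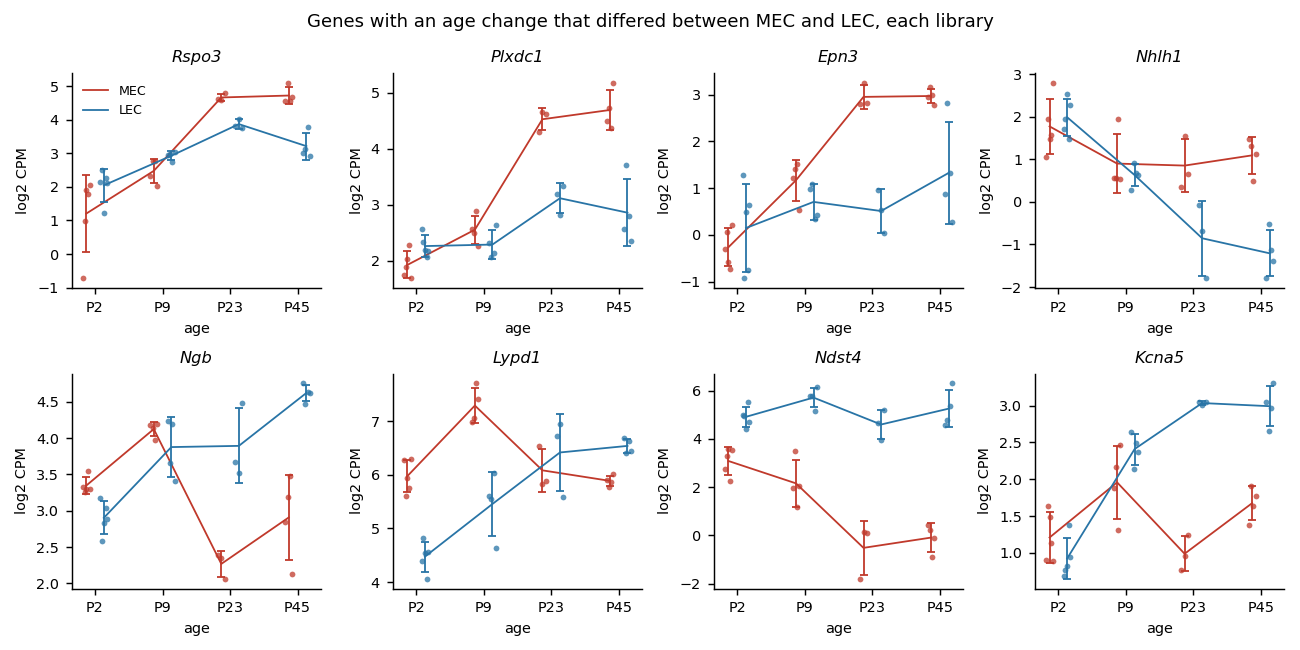
Expression (log2 CPM) by age of 4 genes gained by MEC (top) and 4 gained by LEC (bottom) in MEC LII (red) and LEC LII (blue), with samples as points and the mean ± SD over samples as bars. The older samples of the regions are apart for Rspo3, Plxdc1, Nhlh1, Ngb, Ndst4 and Kcna5 and overlap for Epn3 and Lypd1.

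Some negative genes also had a call that was lost in some of the fits without 1 sample. Lipoprotein lipase (Lpl) ran from 25.9 to 427 CPM (median 263) in young MEC and from 26.4 to 166 (median 36.2) in young LEC. The older samples were alike, with medians of 38.5 CPM in both regions. The interaction was -1.83 ± 0.45 (adjusted p = 0.029, called in 27 of 32 fits, adjusted p = 0.0834 with the replicate number as a block). By limma with quantile normalization it was -1.55 (adjusted p = 0.144). Of the 9 young MEC samples 7 lay above every young LEC sample, while P2 replicates 1 and 3 held 25.9 and 48.7 CPM. Without these replicates the interaction was -2.14 (adjusted p = 1.39e-06), and by limma with sample quality weights it was -2.01 (adjusted p = 7.62e-05). Kctd8, an auxiliary subunit of GABA-B receptors, was also higher in most young MEC samples. It ran from 3.96 to 25 CPM (median 9.35) in young MEC and from 1.49 to 5.35 (median 2.98) in young LEC (interaction -1.73 ± 0.45, 13 of 32 fits). Unlike Lpl, it was highest in MEC P2 replicates 1 and 3, at 25 and 13 CPM. The older samples overlapped, at 4.95 to 7.29 CPM in MEC and 3.04 to 10.1 in LEC. The incretin receptor gene Gipr (-1.75 ± 0.42) and myostatin (Mstn, -1.91 ± 0.48) fell in both regions and by more in the MEC.

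The same limit held for RGD1560608 (-2.84 ± 0.71), Exoc7 (-2.14 ± 0.53), Rps9 (-2.02 ± 0.47), Btbd16 (-2.0 ± 0.47), Fsd2 (-1.83 ± 0.45), Faah (-1.60 ± 0.39) and Sepw1 (-1.47 ± 0.39), called in 11 to 31 of the fits. MEC P2 replicates 1 and 3 held 11.6 and 4.64 CPM of RGD1560608, against 0.39 to 1.43 in the other MEC P2 samples. For Exoc7 they held 4.73 and 2.42 CPM, against 1.11 to 1.32. Without these replicates Exoc7 did not pass the filter on low counts, and RGD1560608 (-1.70, adjusted p = 0.0733), Fsd2 and Sepw1 were not called. Rps9, Btbd16 and Faah were still called. Ribosomal protein genes such as Rps9 have many near-identical copies in the genome, so its counts are uncertain.

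Genes of transmitter release changed in both directions. Of 43 measured genes 2 had a positive and 2 a negative interaction by edgeR, against 0.73% and 0.984% of all genes. DESeq2 called 2 and 4, and limma with sample quality weights 5 and 6. An unadjusted p under 0.05 was found in 13 of them (13% of all genes), and the median was -0.03. Snap25, a core protein of vesicle fusion, rose from 219 to 610 CPM (median 322) to 1545 to 2455 (median 1788) in MEC and from 299 to 617 (median 429) to 1106 to 1743 (median 1307) in LEC. Its interaction was 0.76 ± 0.15 (adjusted p = 0.00478). Complexin 1 (Cplx1), which clamps and speeds fusion, reached 723 to 981 CPM (median 863) in older MEC and 448 to 574 (median 510) in older LEC, without overlap, and its interaction was 0.79 ± 0.15 (adjusted p = 0.00541).

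The synaptotagmins Syt4 and Syt13, chosen after their values were seen, had negative values. Syt4 ran from 296 to 974 CPM (median 671) in young MEC and from 296 to 447 (median 343) in young LEC, and 8 of 9 young MEC samples lay above all LEC samples. In older samples it ran from 250 to 279 CPM (median 270) in MEC and from 243 to 352 (median 315) in LEC. The interaction was -1.15 ± 0.23 (adjusted p = 0.00703). Syt13 rose in the LEC (LFC 0.51) with an interaction of -0.57 ± 0.14 (adjusted p = 0.0284, but 0.062 with the block).

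Among 28 HCN, sodium and calcium channel genes 2 were positive and 1 was negative by edgeR, against 0.73% and 0.984% of all genes. DESeq2 called 2 and 2, and limma with sample quality weights 3 and 5. Of the 28 genes 8 had an unadjusted p under 0.05 (13% of all genes), and the median was -0.01. Scn1a, the sodium channel of mature neurons, ran from 60.3 to 99 CPM (median 73.7) in young MEC and from 53.3 to 79 (median 59.6) in young LEC. It reached 157 to 240 CPM (median 181) in older MEC and 77.5 to 119 (median 95.3) in older LEC, without overlap, and the interaction was 0.71 ± 0.15 (adjusted p = 0.00996). Scn3a, the sodium channel of immature neurons, fell in both regions and by more in the MEC (interaction -0.53 ± 0.14, adjusted p = 0.0332, 21 of 32 fits).

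Of 60 measured potassium channel genes 1 was positive and 3 were negative by edgeR, against 0.73% and 0.984% of all genes. DESeq2 called 3 and 6, and limma with sample quality weights 6 and 7. Of the 60 genes 18 had an unadjusted p under 0.05 (13% of all genes), and the median was 0.01. Besides Kcna5, the modulatory subunit Kcng1 fell in the MEC (LFC -1.41, adjusted p = 6.71e-07) and its change in the LEC did not pass (LFC -0.11, adjusted p = 0.645), with an interaction of -1.31 ± 0.28 (adjusted p = 0.0111, but 0.0558 with the block and 0.0672 in a fit of all 64 samples). Kcnh5, of the ether-a-go-go family, rose in both regions and by more in the LEC (interaction -1.78 ± 0.46, adjusted p = 0.0385, 14 of 32 fits, not called with the block). The sodium-activated channel Kcnt2, chosen after its values were seen, rose by more in the MEC (interaction 0.68 ± 0.17, adjusted p = 0.0381, 15 of 32 fits).

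By edgeR the calls among guidance and cadherin genes were negative, against 0.984% negative and 0.73% positive calls over all genes. Of 55 axon guidance genes 0 were positive and 3 negative by edgeR (0 and 4 by DESeq2, 1 and 9 by limma with sample quality weights), 16 had an unadjusted p under 0.05, and the median was -0.11. The ligand ephrin B3 (Efnb3) fell from 155 to 286 CPM (median 234) to 30.6 to 47.6 (median 42.6) in MEC and from 175 to 317 (median 245) to 65.7 to 89.7 (median 83.3) in LEC. The older samples did not overlap, and the interaction was -0.97 ± 0.15 (adjusted p = 0.000309). The semaphorin Sema4f, chosen after its values were seen, had an interaction of -0.45 ± 0.11 (adjusted p = 0.0248). Of 24 cadherin genes 0 were positive and 2 negative by edgeR (0 and 3 by DESeq2, 2 and 3 by limma with sample quality weights), 9 had an unadjusted p under 0.05, and the median was -0.18. The called genes were the protocadherins Pcdh19 (-1.07 ± 0.24, adjusted p = 0.014) and Pcdh8 (-0.95 ± 0.24, adjusted p = 0.0361, 20 of 32 fits, but 0.0773 in a fit of all 64 samples), both with a larger fall in the MEC.

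Single members of other lists also had negative values. Nptx2, an activity-regulated pentraxin that clusters AMPA receptors, rose from 9.71 to 17.5 CPM (median 13.9) to 27.6 to 60.3 (median 44) in LEC and from 11.1 to 22.6 (median 14.4) to 18.5 to 33.7 (median 25.6) in MEC. Its interaction was -0.83 ± 0.18 (adjusted p = 0.00941), and it was the only gene called by edgeR among 29 immediate early genes and among 34 synaptic adhesion genes, of which DESeq2 called 2 and 3 and limma with sample quality weights 4 and 11. The adrenergic receptor gene Adra2a fell in the MEC from 22.8 to 55.1 CPM (median 32.8) to 15.2 to 20.8 (median 17.7) and ran from 28.8 to 43.3 (median 32.4) in older LEC, with an interaction of -0.94 ± 0.18 (adjusted p = 0.00478). It was the only gene called by edgeR of 51 transmitter receptor genes coupled to G proteins, of which DESeq2 called 4, all negative, and limma with sample quality weights 5.

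The actin-regulating Marcksl1 was the only gene called by edgeR of 21 immature neuron genes (-0.84 ± 0.17, adjusted p = 0.00743). Its exons lie on several chromosomes in the annotation of the files, so its counts are uncertain. Col5a3 was the only one called by edgeR of 26 collagen and laminin genes (-0.84 ± 0.19, adjusted p = 0.0133), and it was higher in MEC at P2/P9 (LFC 0.79, adjusted p = 0.00013).

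Receptors of fast transmission and most lists of other cell types held no call. Of 29 ionotropic glutamate receptor genes 0 passed by edgeR or DESeq2 and 4, all negative, by limma with sample quality weights, 6 had an unadjusted p under 0.05 in edgeR, and the median was -0.20. Of 15 GABA receptor genes 0 passed by edgeR or DESeq2 and 3, all negative, by limma with sample quality weights, 4 had an unadjusted p under 0.05, and the median was -0.19. Of 22 genes of cholesterol synthesis, which supplies the lipid of membranes and myelin, 0 passed by edgeR or DESeq2 and 4, all positive, by limma with sample quality weights, with 6 at an unadjusted p under 0.05 and a median of 0.16.

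Of 22 interneuron genes, 20 astrocyte genes and 20 microglia and macrophage genes 0 passed by edgeR, DESeq2 or limma, with 1, 2 and 2 at an unadjusted p under 0.05 in edgeR and medians of -0.21, -0.05 and -0.21. Of 19 endothelial and mural genes 0 passed by edgeR or DESeq2, 1 passed by limma with sample quality weights, 4 had an unadjusted p under 0.05, and the median was 0.27. Of 19 meningeal genes 0 passed by edgeR or DESeq2 and 2 by limma with sample quality weights, 2 had an unadjusted p under 0.05, and the median was 0.48, with the low sums of MEC P2 replicates 1 and 3 on the young side of this difference. Of 30 cell cycle genes 0 passed by edgeR, DESeq2 or limma, 1 had an unadjusted p under 0.05, and the median was 0.05.

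**Figure D4:**
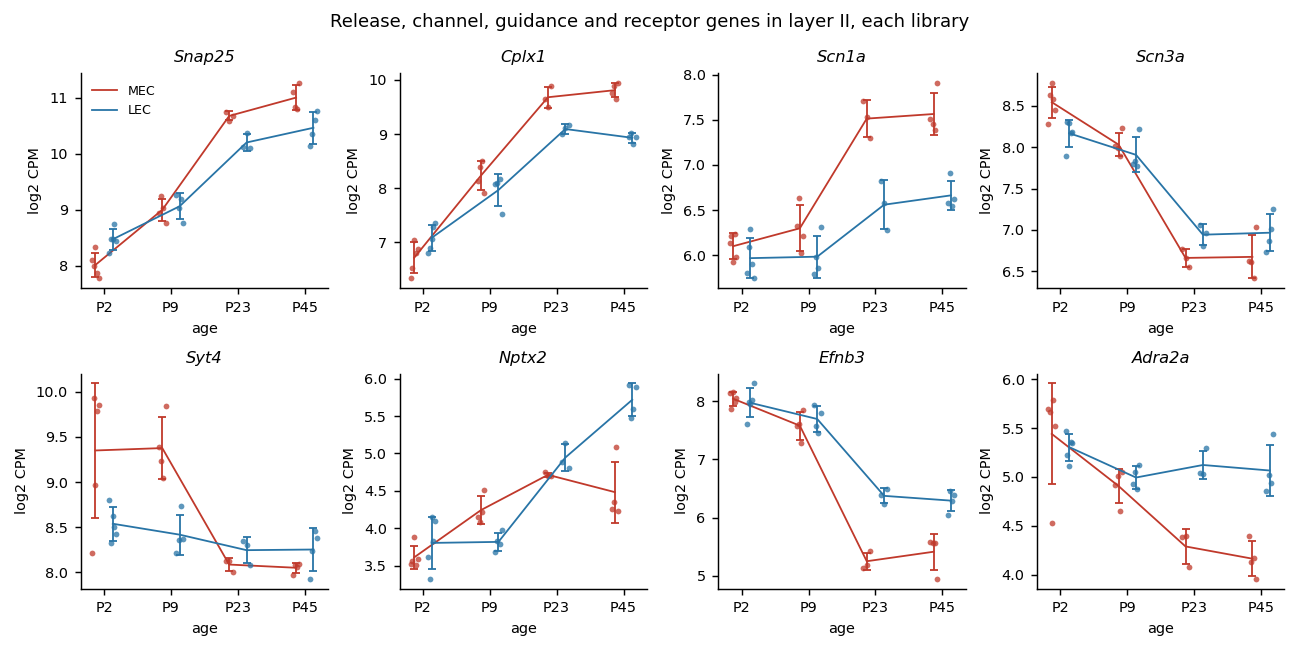
Expression (log2 CPM) by age of 8 genes of release, sodium channels, synapse, guidance and receptors in MEC LII (red) and LEC LII (blue), with samples as points and the mean ± SD over samples as bars. Snap25, Cplx1 and Scn1a rose by more in the MEC, Scn3a and Efnb3 fell by more in the MEC, and Syt4 was higher in the MEC at P2/P9 only.

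Of 15 markers of LII neurons 1 passed by edgeR and 3, all negative, by limma with sample quality weights, 7 had an unadjusted p under 0.05 in edgeR, and the median was 0.03. Reelin (Reln), the marker of stellate and fan cells, ran from 535 to 1509 CPM (median 801) in young MEC, 400 to 1133 (median 935) in young LEC, 341 to 913 (median 460) in older MEC and 408 to 1274 (median 604) in older LEC. Its interaction was -0.34 ± 0.31 (adjusted p = 0.719). Calbindin (Calb1) had an interaction of 0.34 ± 0.14 (adjusted p = 0.272). Wfs1, which marks pyramidal cells, had one of 0.72 ± 0.25 (adjusted p = 0.145, but 0.0213 with the replicate number as a block and 0.034 without P9 replicate 4 of both regions), with 507 to 758 CPM (median 695) in older MEC and 240 to 427 (median 316) in older LEC, which did not overlap. The gene called by edgeR was Rasgrf2, an exchange factor for Ras (-0.72 ± 0.18, adjusted p = 0.0332, 21 of 32 fits).

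The cofactor Lmo4 had an interaction of -0.77 ± 0.22 that did not pass by edgeR (adjusted p = 0.0682) and passed by DESeq2 (adjusted p = 0.0278) and by limma with sample quality weights (adjusted p = 0.00189). Without MEC P2 replicates 1 and 3 its adjusted p was 0.00149. Those of the transcription factors Sox5 (0.09 ± 0.21) and Gli3 (-0.10 ± 0.29) had adjusted p-values of 0.909 and 0.932. Tle4, a corepressor and the only gene called by edgeR of 19 deep-layer and subplate genes, was higher in young MEC (LFC 0.63) and had an interaction of -0.62 ± 0.16 (adjusted p = 0.0385, 13 of 32 fits, adjusted p = 0.0869 with the block).

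Dissection borders were examined with genes of neighbouring areas. Lypd1 was the only gene called by edgeR of 17 measured genes of amygdala, striatum and piriform cortex (median -0.11, 3 called by DESeq2). The summed CPM of this list was 446 to 859 (median 523) in young MEC and 440 to 736 (median 521) in young LEC. It was 532 to 623 (median 589) in the 7 older MEC samples and 586 to 844 (median 713) in the 7 older LEC samples. At P45 the regions did not overlap, at 565 to 621 in MEC and 713 to 844 in LEC. Ociad2, the only one called by edgeR of 13 hippocampal and parahippocampal genes (median 0.35, 2 positive and 3 negative by limma with sample quality weights), fell in the MEC and rose in the LEC (interaction -1.11 ± 0.19, adjusted p = 0.00106). The part of neighbouring tissue in these values was not tested.

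The precursor of miR-2985 was the only microRNA gene called by edgeR, chosen after its values were seen (Mir2985, -0.70 ± 0.16, adjusted p = 0.0202). Its mature sequence in the RefSeq table, with the seed (bases 2 to 8) in capitals, is shown to identify it.
rno-miR-2985: uGUUAUAGuaucccaccuaccc
On Rn6 this precursor (chromosome 2, 179591312 to 179591421, minus strand) lies within an exon of the AMPA receptor gene Gria2 on the same strand. Read pairs that overlapped both genes were counted for both, so these counts are not those of a microRNA. Gria2 itself had an interaction of -0.51 ± 0.21 (adjusted p = 0.244).

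The same interaction in the deep layers passed in 72 of 12521 genes (0.575%; 0.455% positive and 0.12% negative). By the study's description the layers of a number share an animal in the MEC, so the values of the layers are not independent. Of the 89 genes gained by MEC in LII, 68 had a deep-layer value of the same sign and 17 of them passed in the deep layers, with a median of 0.29. Over all genes with both values 60% had the same sign. Of the 120 gained by LEC, 109 had the same sign and 8 passed, with a median of -0.35. All 8 called myelin genes had the same sign in the deep layers and 7 passed there, for example Tspan2 (1.53 ± 0.17), Ugt8 (1.92 ± 0.25) and Mag (1.99 ± 0.40). The median of the 28 myelin genes was 1.10 in the deep layers, and 0 of the 28 values differed between LII and the deep layers by edgeR (1 by DESeq2), with 5 at an unadjusted p under 0.05.

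The interaction of LII differed from that of the deep layers in 1 of 12521 genes (0.00799%), and 808 had an unadjusted p under 0.05. This gene was Rspo3, with 1.69 ± 0.33 in LII and -0.44 ± 0.28 in the deep layers, a difference of 2.13 (adjusted p = 0.0302). The call was lost in 9 of 16 fits that left out a replicate number of an age. Of the 11 named genes gained by MEC, 8 had the same sign in the deep layers, and the values of Epn3 (-0.43 ± 0.62), Tmem45b (-0.54 ± 0.47) and Rspo3 were negative. Of the 12 gained by LEC, 11 had the same sign, and Ngb (-1.24 ± 0.23, adjusted p = 0.00183) and Lypd1 (-1.15 ± 0.27, adjusted p = 0.0238) passed there too.

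**Figure D5:**
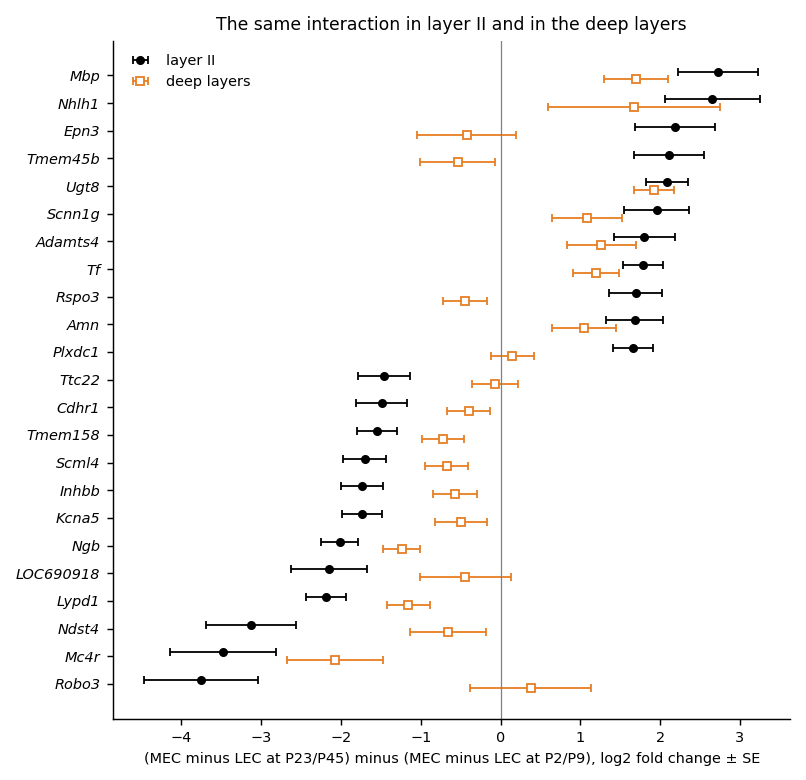
Interaction (LFC ± SE) in LII (black circles) and in the deep layers (orange squares) for the 23 named genes that were strongest in each direction and passed in every fit without 1 sample. The deep-layer values have the sign of LII in 19 of the 23 genes, and Rspo3 is the gene whose difference between the layers passed.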

How the data were processed

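Total RNA of 32 layer II samples (16 MEC, 16 LEC) had been depleted of ribosomal RNA, made into stranded libraries and run across all lanes of the sequencer. The submitters' processing notes name bcl2fastq 1.8.4, Trimmomatic 0.33, STAR 2.4.0 and featureCounts of Subread 1.4.6-p1. The authors aligned read pairs to Rn6 and counted them on RefSeq exons with strand, and pairs that overlapped several genes were counted for each of them. The deposited values are whole-number counts per gene without normalization, for 17260 genes. Genes with near-identical copies or overlaps are therefore uncertain.

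Counts were tested with the quasi-likelihood test of edgeR 4.0.16 (R 4.3.3) with TMM library sizes, its filter on low counts, 1 mean for each of 8 groups of region and age, and no block, on the 32 samples. The difference to the deep layers was fitted on all 64 samples. Adjustment (Benjamini-Hochberg) was over all genes tested, and genes under 0.05 were called. The SE of an LFC was obtained from the LFC and the root of its F statistic. CPM values are scaled by TMM, and log2 CPM has a prior count of 2. The study's own method, voom with TMM and quantile normalization in limma, was an alternative here (limma 3.58.1), as were DESeq2 1.42.0, sample quality weights, RLE size factors, other filters, an absolute LFC above 0.5, pairs of single ages, the replicate block and each sample left out.

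Among 50 replicate pairs in layer II 0 were identical, and chi-square per degree of freedom was at least 3.08. The fits were tested on simulated counts before use. Genes were named by a rule. It took called genes with a mean of at least 1 CPM, a count in every group, both older regional differences on one side of both younger ones and a call in all 32 fits without 1 sample, and kept the 12 largest in each direction. It added the 2 called genes of each list with the smallest adjusted p, genes set by name (Reln, Calb1, Wfs1, Lmo4, Sox5 and Gli3), and genes that failed only on leaving out a sample. The comparison, the gene lists and these genes were chosen with earlier results of these data known. Some genes that the rule takes are not reported here. Promoter and microRNA sequences come from RefSeq tables (GRCr8), whose coordinates were not mixed with those of Rn6.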

Additional observations from a re-analysis of the deposited data

Results flagged for a closer look

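The age change differed between MEC and LEC LII in 209 genes by the test of the interaction, and the interaction of Rspo3 differed between LII and the deep layers by 2.13. Both are described above.

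Samples far from the rest of their group were sought with Dixon's ratio on log2 CPM in the groups of 4 or 5 samples, over 71 named genes. Of 426 combinations of gene and group 32 (7.51%) exceeded the critical value, where chance gives about 1 in 20. Most of these combinations came from a few samples.

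LEC P9 replicate 2 was high for myelin genes. It held 355 CPM of Mbp against 28.7 to 36.1 in the other samples of its group and 27.4 CPM of Mag against 4.43 to 5.31.

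MEC P2 replicate 1 stood apart for 5 genes. It was low for Ttc22 (1.58 CPM against 5.99 to 9.34 in the others), Sema4f (61.5 against 81.2 to 85.7) and Fam3c (66.8 against 108 to 125). It was high for LOC690918 (12.1 CPM against 3.01 to 3.61) and Mir2985 (55.6 against 27.7 to 29.6). MEC P2 replicate 3 was high for Mag (16.4 CPM against 2.26 to 3.32) and Nptx2 (14.4 against 11.1 to 11.7) and low for Mstn (1.06 against 3.71 to 5.09) and Adra2a (22.8 against 45.6 to 55.1).

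LEC P9 replicate 4, which lay between the other P9 samples and P2 on the first component, stood apart for 5 genes. It was low for RGD1560608 (1.69 CPM), Fsd2 (1.9 CPM), Cplx1 (184 CPM against 270 to 286) and Calb1 (139 CPM against 200 to 215) and high for Scn3a (298 CPM against 219 to 228). MEC P9 replicate 4 was high for Mc4r (7.58 CPM against 0.68 to 0.976). Other P9 samples that stood apart were MEC replicate 1 for Ninj2 (0.34 CPM), replicate 2 for Kcng1 (40.7 CPM) and replicate 3 for Nhlh1 (3.54 CPM).

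At P45, LEC replicate 1 was low for Scnn1g (0.77 CPM), Tle4 (52.9 CPM) and Tspan2 (30 CPM). LEC replicate 2 was high for Tmem158 (23.8 CPM) and low for Gipr (2.07 CPM) and Ociad2 (30.4 CPM), and LEC replicate 3 was low for Syt13 (95.7 CPM). MEC replicate 3 was high for Nptx2 (33.7 CPM), and MEC replicate 4 was low for Efnb3 (30.6 CPM) and high for Wfs1 (695 CPM). At P2, LEC replicate 4 was high for Syt13 (88.2 CPM) and MEC replicate 4 was high for Ngb (11.4 CPM).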

How the results depend on the processing

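The count of 209 genes with a regional difference in age change was 361 by DESeq2 (154 gained by MEC and 207 by LEC, with all 209 among them) and 876 by limma voom with sample quality weights (411 and 465). It was 99 with P2 and P45 only and 48 with P9 and P23 only, where fewer samples entered. Without MEC P2 replicates 1 and 3, an alternative chosen after seeing the data, it was 443. Leaving out each sample gave 140 to 338 genes, the lowest without LEC P23 replicate 1 and the highest without MEC P2 replicate 1. The 8 called myelin genes were 15 with sample quality weights, 4 with P2 and P45 only, 2 with P9 and P23 only, and 6 to 11 without 1 sample. The count of regional differences at P2/P9 (675) was 345 with an absolute LFC above 0.5 and 1737 with sample quality weights, and 492 to 811 without 1 sample. That at P23/P45 (999) was 603, 2224 and 683 to 1317, respectively. The age changes in LEC (7925) were 5190 with an absolute LFC above 0.5, and 7539 to 8168 without 1 sample. Those in MEC (8330) were 7924 to 8511 without 1 sample. The difference between LII and the deep layers (1 gene) was called in 6 genes by DESeq2, in 20 with sample quality weights and in 0 with at least 10 counts in every sample (569 at an unadjusted p under 0.05), and in 0 to 2 genes without a replicate number of an age. It was 0 without P9 replicates 1, 2 or 4, without any single P23 replicate, or without P45 replicates 1, 2 or 4. The cause of these shifts was not tested.

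Some genes that were not called changed sign. Reln was 0.25 and Gli3 0.28 with P9 and P23 only, where Calb1 was -0.0088 and Sox5 -0.11. Without 1 sample Sox5 ran from -0.0052 to 0.16 and Gli3 from -0.19 to 0.066. Of the 71 named genes, of which 65 were called, 10 lost the call by limma voom with quantile normalization, 10 without P9 replicate 4 of both regions (chosen after seeing the data), 37 of 70 with P2 and P45 only and 52 with P9 and P23 only, and 0 called genes changed sign. Under the other tools, scalings, filters, age pairs and the block the median of all genes stayed between -0.0094 and 0.007.

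No source used here says that a replicate number marks the same animal in both regions, and the correlations did not show it for every pair. Of 16 pairs with the same number 10 had a correlation of deviations over 0.1 (mean 0.12, lowest -0.14), against a mean of -0.04 over 50 pairs with other numbers, and 7 of 16 MEC samples correlated best with the LEC sample of their own number. With the replicate block the count was 228, of which 168 were among the 209. The block removed the call of 10 named genes (Fam132a, Fsd2, Kcng1, Kcnh5, Kctd8, Lpl, Mstn, Ninj2, Syt13 and Tle4) and added that of Wfs1. Depth limits genes near 1 CPM, where a single count is up to 0.257 CPM. Examples are Robo3 and Tmem45b in both regions, Ndst4 in older MEC samples, and Cpa6 and Nhlh1 in older LEC samples.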
